A study of Mus musculus with 38 samples.

Results

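The 40 genes described here carry fatty acid oxidation and lipid storage, and they were taken by symbol from a table of 21705 mouse genes measured by RNAseq in 38 libraries. All 40 symbols are in the table. They fall by role into long-chain entry to mitochondria (4 genes), beta-oxidation enzymes (10), electron transfer (3), PPAR regulators (3), uptake and binding (6), lipid droplet coats (5), lipases (3), triglyceride synthesis (2) and acyl-CoA synthetases (4). The libraries came from MYC, VM and VIM kidney tumours (3 each), from normal kidney (5), and from the cell lines MYC-2983, VM-3055 and VIM-3039 with and without doxycycline (Dox, 4 each). MYC mice (genotype MYC+) carry a doxycycline-inducible transgene, Tet-O-Myc, driven by Ksp-rtTA, whose promoter is active in kidney tubule epithelium. VM mice (Vhl-/-; MYC +) lose Vhl as well, in the cells that express KspCreERT2 after tamoxifen. VIM mice (Vhl-/-; MYC +; Ink-/-/Arf-/-) additionally lack Ink4a/Arf in every cell. All tumours and the cells with Dox were maintained on Dox, the cells without Dox had it withdrawn, and the kidneys were Wild Type with vehicle. Each genotype is represented by 1 line, so a difference between lines cannot be told apart from a difference between genotypes. The labels give the genotype alone for the VM and VIM cells, and the line numbers used for them are those of the study. Ages are not in the labels.

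Lipoprotein lipase frees fatty acids from circulating triglyceride, and CD36 takes them into the cell. There they are bound by FABP proteins and activated to acyl-CoA by ACSL enzymes. Long-chain acyl-CoA then crosses into mitochondria on carnitine through CPT1, the carnitine-acylcarnitine carrier and CPT2, where beta-oxidation shortens it and passes electrons through ETF to the respiratory chain. What is not oxidised is esterified by DGAT enzymes and stored in lipid droplets coated by perilipins. PPAR alpha drives oxidation genes, above all in the proximal tubule, a segment that lives largely on fatty acids, while stored neutral lipid gives clear cell renal carcinoma its pale cytoplasm.

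Values are the authors' RSEM estimates scaled to a common upper quartile, called units here. They are not corrected for gene length, so levels of different genes are set side by side only per kb. The estimated reads per library were 8.22 to 15.55 M in tissues and 12.43 to 36.58 M in cells, and 3 reads, the floor used here, are worth 1.16 to 5.65 units. Groups were tested by limma on the log2(value + 1) scale, and a gene was called with a Benjamini-Hochberg adjusted p under 0.05 over all tested genes and a log2 change of more than 1. Vhl followed the labels. It lay at 612 to 772 units in kidney and 468 to 560 in MYC tumours against 40.2 to 79.9 in VM and 219 to 312 in VIM tumours, and at means of 451 and 533 in MYC-2983 cells against 12.7 to 31 in the Vhl-deleted lines. Cdkn2a lay at 30.1 to 95.5 in VIM and 3392 to 4347 in VM tumours, but also at 108, 2872 and 59.3 in MYC tumours and at 0 to 3.8 in kidney, so in tissue a low level does not mark the deletion. In cells its means were 30 and 34.1 in VIM-3039 and 3171 to 5162 in the other lines. Myc RNA, 208 to 801 units in tumours and 40.7 to 119 in kidney, was lower with Dox in all 3 lines (log2 changes of −1.44, −1.83 and −1.96). Whether transgene reads enter that row is not stated, so it does not check the transgene.

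Some tissue libraries stood apart. Normal kidney 5 held 233226 units of Kap, an abundant proximal tubule RNA, against 813562 to 1234950 in the other kidneys. Its Ppara, at 3847 units, lay within the 3289 to 4003 of the other kidneys. Kap is among the 11 proximal tubule markers summed below, and it makes up most of that sum in kidneys 1 to 4. Whether kidney 5 held fewer tubule cells was not tested. Adipoq, made by fat cells, was at 0 in all 5 kidneys but at 35.5 and 186 in MYC tumours 2 and 3, at 14.6 in VM tumour 1 and at 82.6 in VIM tumour 3, the 4 tumour libraries above 10 units and left out together below, and at 0 to 2.47 in the other tumours. The 11 fat cell markers, Adipoq among them, went the other way in sum, with 46511 to 100646 units in kidney and 686 to 3328 in tumours. In kidney 7 of the 11 were at or under the floor in every library, with Adipoq, Lep and Retn at 0. Few markers of the list therefore carry the kidney sum, and which cells their RNA came from was not tested. Umod, a loop of Henle gene, reached 2475 in MYC tumour 2 and 3228 in VIM tumour 2. The 11 proximal tubule markers summed to 575586 to 1596025 units in kidney and to 3128 to 18479 in tumours, while 8 endothelial markers summed to 5812 to 10312 and 298 to 2936. The 8 macrophage markers went the other way, from 1245 to 2304 in kidney to 3867 to 19651 in tumours. The part of these cell types in the changes below was not tested, and in bulk tissue fewer cells of a type cannot be told apart from less RNA per cell. MYC tumours 2 and 3 are from 1 mouse and were averaged for all tests.

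Compared with normal kidney, the tumours had lower RNA of 3 of 4 long-chain entry genes, 6 of 10 beta-oxidation enzymes, 3 of 6 uptake and binding genes and 1 of 4 acyl-CoA synthetases. Over the average of the 3 tumour genotypes 21 of the 40 genes were called (52.5%), 18 lower and 3 higher, where 38.5% of all 17116 tested genes were called (20.3% lower and 18.2% higher). The median log2 change of the 40 genes was −0.95, against 0.03 for all genes. The largest falls were in Cd36, Lpl, Ehhadh, Ppara and Acsl1, and the 3 rises were in Fabp5, Pparg and Dgat1. The 17 entry, oxidation and electron transfer genes summed to 109988 to 136174 units in kidney, 33393 to 41207 in MYC, 38465 to 60894 in VM and 53425 to 74003 in VIM tumours.

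**Figure D1:**
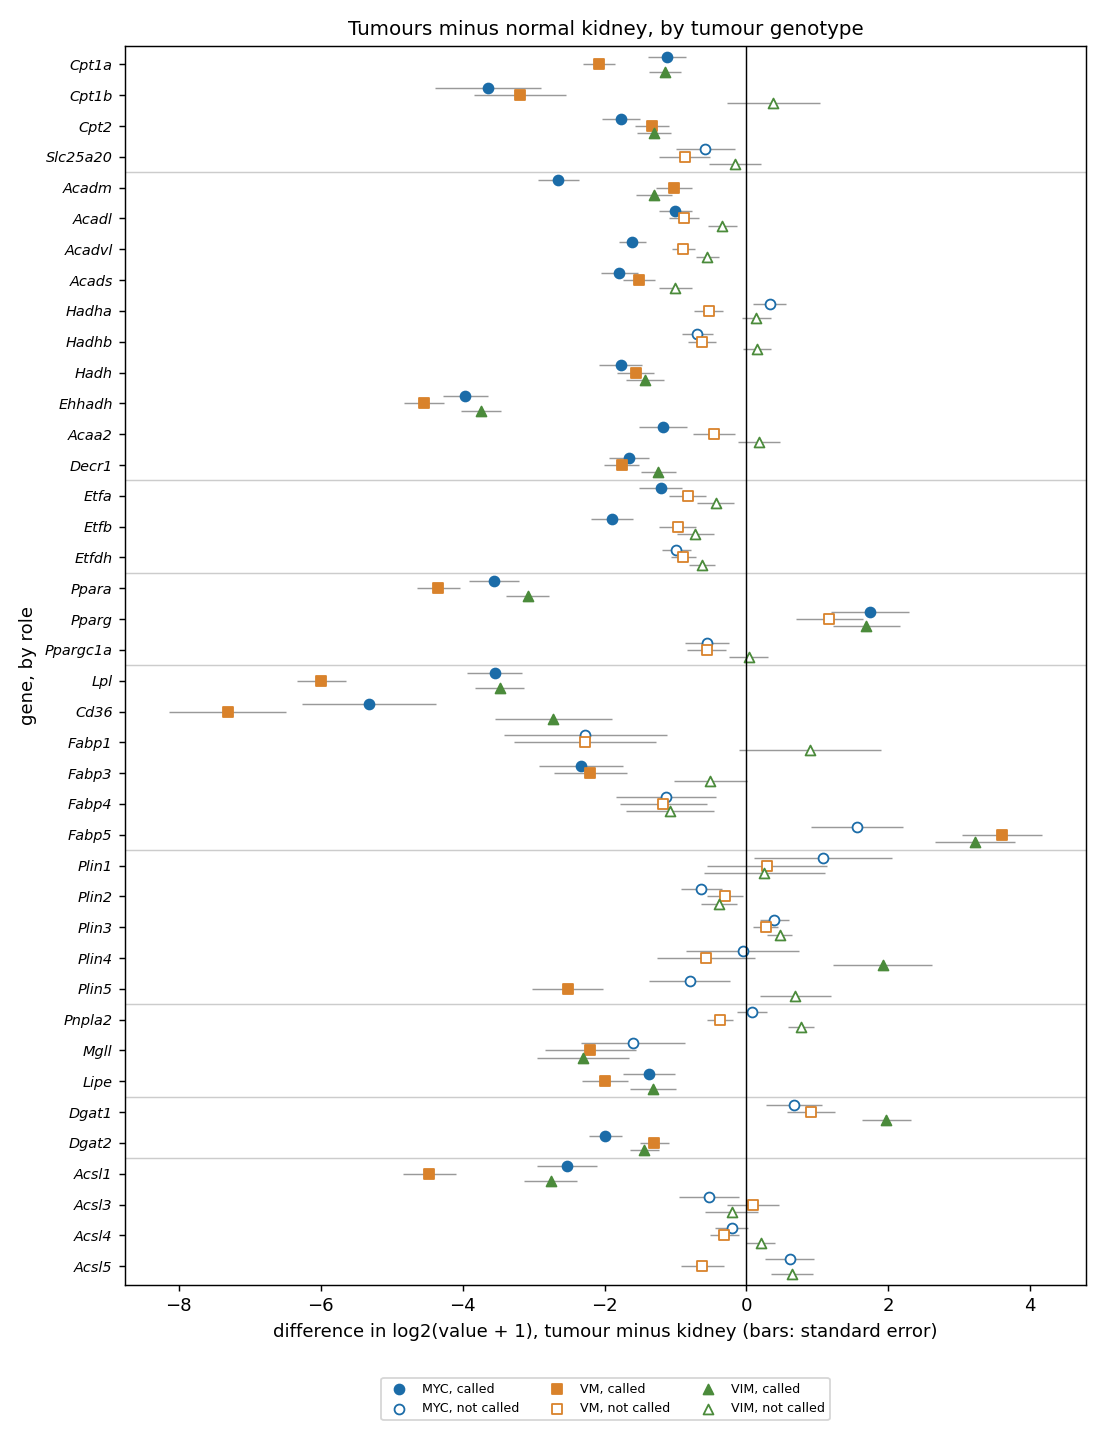
Log2 change against normal kidney (x axis, log2(value + 1) scale, error bars are SE) for each of the 40 genes (y axis, ordered by role) in MYC, VM and VIM tumours; filled points were called and open points were not. Most oxidation genes lie left of 0, with Cd36 of VM tumours farthest at −7.31, while Fabp5 lies to the right.

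Cd36 and Lpl had the largest falls. Cd36, the fatty acid translocase, was measured at 26009, 26609, 30813, 31910 and 4940 units in normal kidneys 1 to 5, at 1021, 201 and 299 in MYC tumours, at 104, 138 and 139 in VM tumours and at 1456, 1187 and 16606 in VIM tumours. The MYC and VM tumours lay under every kidney, whereas VIM tumour 3 lay above kidney 5. Its log2 change was −5.12 (SE 0.651, limma adjusted p = 2.08e-05), and −5.63 without kidney 5. VIM tumour 3 also held 82.6 units of Adipoq, 899 of Cfd and 44.1 of Lep, all of which fat cells express. Its Fabp4, at 953 units, lay within the 451 to 1147 of kidney. The Cd36 change in VIM tumours was −2.72 (limma adjusted p = 0.0155), and −3.94 without the 4 libraries with Adipoq above 10 units. It was not called against the 3 kidneys with KT titles alone (−2.40, limma adjusted p = 0.0743), without VIM tumour 1 (−2.19, 0.0835) or without VIM tumour 2 (−2.04, 0.0836). Lpl, the lipoprotein lipase that frees fatty acids from circulating triglyceride, was at 29709, 39574, 20995, 25482 and 12832 units in kidneys, 1757, 2330 and 2476 in MYC, 253, 415 and 509 in VM and 1514, 2292 and 2911 in VIM tumours. No tumour reached the lowest kidney, and the mean was 16.4-fold lower (log2 −4.34, SE 0.27, limma adjusted p = 5.61e-08). Fabp3, a binding protein of muscle and kidney, fell by 1.68 on the log2 scale, with tumours from 21.2 to 357 and kidneys from 221 to 309 units, and was not called against the B6 kidneys alone (−1.64, limma adjusted p = 0.0772).

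Ehhadh, the peroxisomal bifunctional enzyme, fell in every tumour. Its values were 15912, 22930, 15277, 16164 and 13689 units in kidneys against 1646, 705 and 655 in MYC, 533, 685 and 975 in VM and 1038, 1395 and 1300 in VIM tumours, a 16.1-fold lower mean (log2 −4.08, SE 0.22, limma adjusted p = 2.13e-08). Ppara, which encodes the nuclear receptor itself, was at 3289, 3564, 3627, 4003 and 3847 units in kidneys, 377, 420 and 87.6 in MYC, 165, 122 and 290 in VM and 463, 663 and 261 in VIM tumours. The groups did not overlap, and the mean was 11.3-fold lower (log2 −3.66, SE 0.239, limma adjusted p = 8.24e-08). Acsl1, the long-chain acyl-CoA synthetase of oxidising tissues, was at 2533, 3917, 2697, 3567 and 9386 units in kidneys, 661, 730 and 648 in MYC, 216, 146 and 170 in VM and 527, 865 and 413 in VIM tumours. All tumours lay under the kidneys (log2 −3.25, SE 0.292, limma adjusted p = 1.03e-06, and −2.93 without kidney 5).

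**Figure D2:**
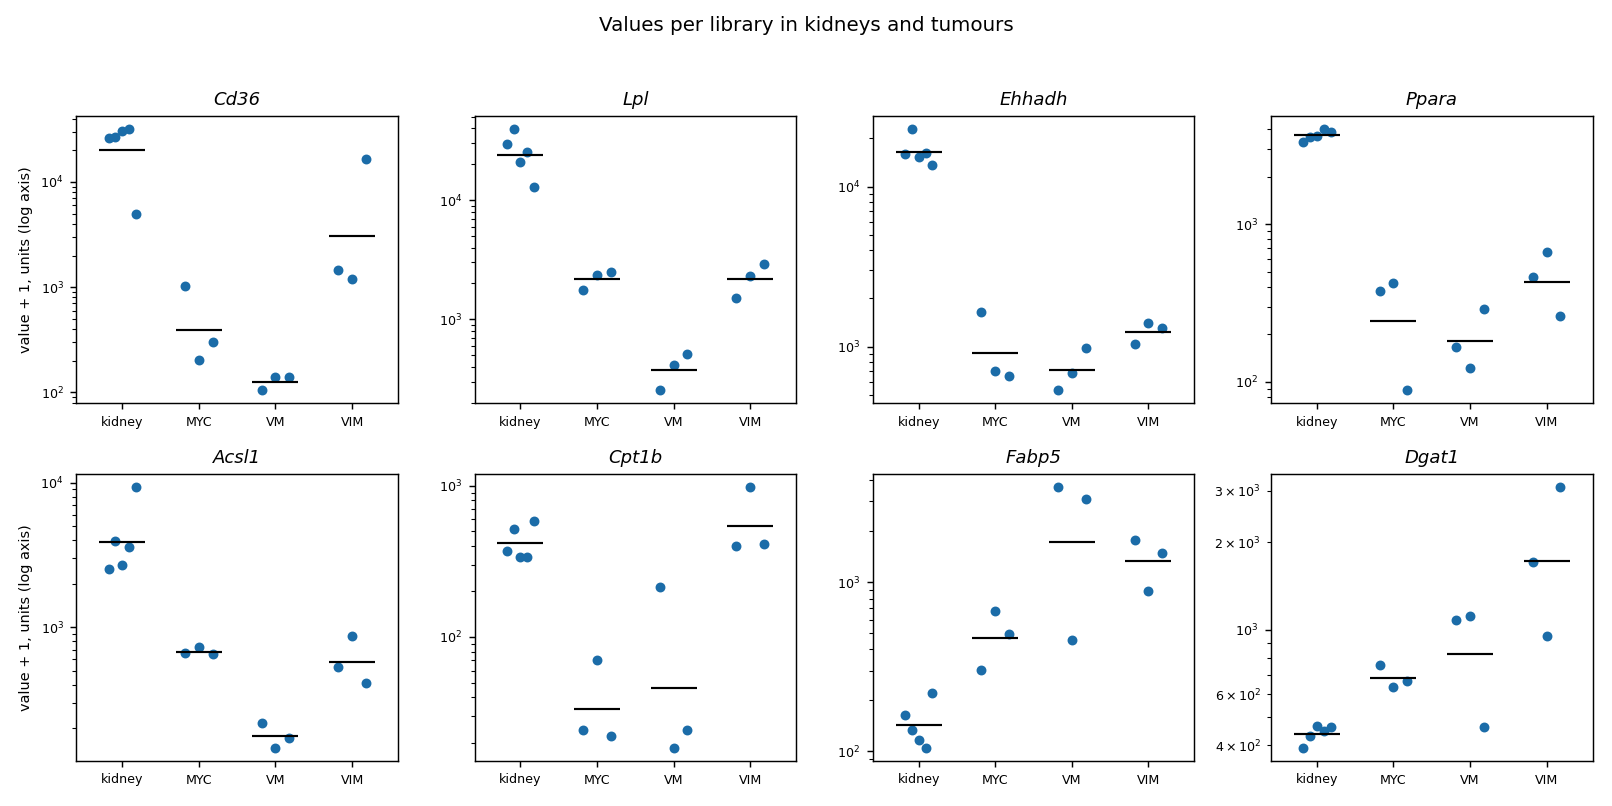
Value of Cd36, Lpl, Ehhadh, Ppara, Acsl1, Cpt1b, Fabp5 and Dgat1 in each tissue library (y axis, units + 1, log axis) for normal kidney and MYC, VM and VIM tumours (x axis); the line is the mean of log2(value + 1). Lpl, Ehhadh, Ppara and Acsl1 of every tumour lie below every kidney, Cd36 of 1 VIM tumour reaches 16606, and Cpt1b of VIM tumours lies among or above the kidneys.

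In the mitochondrial pathway the falls were smaller and shared by most steps. Of the carnitine genes, Cpt1a, the liver-type gate enzyme, fell by 1.45 on the log2 scale (3873 against 10043 units), Cpt2 fell by 1.47, and Slc25a20, the carrier, was not called at −0.54. Cpt1b, the muscle-type gate enzyme, was at 370, 515, 339, 337 and 583 units in kidneys, 23.3, 69.4 and 21.2 in MYC, 212, 17.5 and 23.4 in VM and 397, 987 and 408 in VIM tumours. It was therefore low in MYC and VM tumours (log2 −3.64 and −3.19) and overlapped kidney in VIM tumours. Over the tumour average it was −2.15, and −1.91 and not called against the B6 kidneys alone. It shares bases on its own strand with Chkb, so reads of the pair may be split. Of the 10 beta-oxidation enzymes 6 were called lower, Ehhadh and 5 mitochondrial ones. Acadm, the medium-chain dehydrogenase, was at 15647 to 24483 units in kidney and at 1563 to 12738 in tumours (log2 −1.66, SE 0.2, limma adjusted p = 1.31e-05), and Hadh, Decr1, Acads and Acadvl fell by 1.59, 1.55, 1.43 and 1.02. Hadha, the alpha subunit of the trifunctional protein, was at 2824 to 5156 units in kidney and at 2128 to 4807 in tumours, with a log2 change of −0.02 (SE 0.16, limma adjusted p = 0.936). Hadhb, its partner, was at −0.39, Acaa2, the last thiolase, at −0.49, and Acadl at −0.74, none of them called. Of the electron transfer genes Etfb fell by 1.19, and Etfa and Etfdh, at −0.82 and −0.84, were not called. Under quantile normalization Cpt1a, Acadvl and Etfb were no longer called.

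Storage genes gave calls in both directions. None of the 5 droplet coat genes was called over the tumour average. Plin2, the common coat of non-adipose cells, was at 1041 to 1581 units in kidney and 654 to 1575 in tumours (log2 −0.44, SE 0.198, limma adjusted p = 0.0734), and Plin3 was at 0.38. Of the acyltransferases for the last step of triglyceride synthesis, Dgat2 fell by 1.58 (1446 against 4154 units, with no overlap). Dgat1 rose by 1.18 (SE 0.271, limma adjusted p = 0.00224), from 391, 428, 465, 446 and 462 units in kidneys to 752, 633 and 662 in MYC, 1077, 1111 and 461 in VM and 1712, 951 and 3104 in VIM tumours. VM tumour 3 lay within the kidneys. Of the lipases, Lipe and Mgll fell by 1.56 and 2.03 (Mgll −1.11 and not called against the 2 B6 kidneys alone, limma adjusted p = 0.219), while Pnpla2, which starts triglyceride breakdown, was at 0.16. Fabp5, the epidermal fatty acid binding protein, was at 164, 133, 115, 104 and 219 units in kidneys, 300, 673 and 496 in MYC, 3666, 455 and 3112 in VM and 1776, 888 and 1478 in VIM tumours. Every tumour exceeded every kidney, and the mean was 9.6-fold higher (log2 2.79, SE 0.443, limma adjusted p = 0.000136). Pparg, the receptor of fat storage, stayed low at 32.1 to 97.9 units in tumours but exceeded the 9.77 to 29.1 of kidney (log2 1.53, SE 0.375, limma adjusted p = 0.00349), and was not called against the 2 B6 kidneys alone (1.30, limma adjusted p = 0.0725).

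Promoter windows of the genes were searched for the E-box CACGTG, which MYC binds, the hypoxia response core ACGTG, which every CACGTG contains, and AGGTCA, the core of PPAR elements,, on both strands. Each window has 250 bases before the RefSeq start and 30 after it, read 5′ to 3′ on the strand of the gene. RefSeq windows of GRCm38.p6 were at hand for 32 of the 40 genes, and all 38 windows matched mm9 exactly once, which gives the positions printed here. Cd36 and Ehhadh are shown for the falls in tumours, with motif matches in capitals.
Cd36 (mm9, chr5:17341685-17341964, minus strand): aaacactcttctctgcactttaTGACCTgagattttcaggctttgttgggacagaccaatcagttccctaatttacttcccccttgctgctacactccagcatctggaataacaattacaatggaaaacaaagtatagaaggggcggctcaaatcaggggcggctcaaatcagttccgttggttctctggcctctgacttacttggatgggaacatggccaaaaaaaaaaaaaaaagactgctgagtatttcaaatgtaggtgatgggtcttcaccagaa
Ehhadh (mm9, chr16:21787878-21788157, minus strand): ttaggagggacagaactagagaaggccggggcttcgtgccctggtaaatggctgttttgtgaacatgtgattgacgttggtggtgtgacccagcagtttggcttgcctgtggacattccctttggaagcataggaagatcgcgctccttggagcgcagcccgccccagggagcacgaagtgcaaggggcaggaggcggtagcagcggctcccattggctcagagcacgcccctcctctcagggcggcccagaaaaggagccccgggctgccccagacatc
The Cd36 window lies 53063 bases inside the annotated gene start and holds 1 AGGTCA, written as its reverse complement, at base 23, whereas none of the 3 motifs is in the Ehhadh window. Over the 38 windows CACGTG was found in 3, ACGTG in 6 and AGGTCA in 10, where 6.79%, 18.5% and 15.3% of all 32851 windows of this length hold them.

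The tumour genotypes, which share the kidneys they are set against, had different counts. In MYC tumours 1 gene was higher and 20 were lower (52.5% called), where 32.6% of all genes were called, 17.4% higher and 15.2% lower. In VM tumours they were 1 and 17 (45%, where 37.6% of all genes were called, 16.4% higher and 21.2% lower) and in VIM tumours 4 and 13 (42.5%, where 37.2% were called, 17.9% higher and 19.2% lower). The median log2 changes were −1.15, −0.93 and −0.41, against 0.12, −0.03 and 0.00 over all genes. Between the Vhl-deleted and MYC tumours 1 of the 40 genes was called (2.5%, where 2.51% of all genes were called and 0.911% were called higher). This was Acadm, at 3695, 1563 and 4062 units in MYC tumours, 12738, 11674 and 6681 in VM and 9160, 6378 and 9562 in VIM tumours (log2 1.49, SE 0.284, limma adjusted p = 0.0177). It lost its call without the mouse that gave MYC tumour 1 (limma adjusted p = 0.0648), without the mouse that gave MYC tumours 2 and 3 (0.121) and without the 4 libraries with Adipoq (0.102).

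VIM and VM tumours differed more. Of the 40 genes 6 were called, all higher in VIM tumours (15%, where 2.65% of all genes were called and 1.78% were called higher). They were Cd36 (6416 against 127 units, log2 4.59, SE 0.925), Cpt1b (597 against 84.2, log2 3.57, SE 0.731), Plin5 (160 against 17.8, log2 3.21, SE 0.555), Lpl (2239 against 393, log2 2.52, SE 0.385), Acsl1 (602 against 177, log2 1.70, SE 0.415) and Pnpla2 (3057 against 1404, log2 1.14, SE 0.203), with limma adjusted p from 0.00534 to 0.0455. Acsl1, nearest the threshold, lost its call in most settings tried, among them without any 1 of the VM tumours. Cpt1b lost its call with no filter (limma adjusted p = 0.0672), and without VIM tumour 1 or 2 or VM tumour 2 or 3 (from 0.0507 to 0.0801). Cd36 lost its call with no filter (0.072), with voom (0.0841) and without VM tumour 2 (0.0622). Pnpla2 lost its call with voom (0.052) and without VM tumour 3 (log2 0.93). Plin5, the coat that links droplets to mitochondria, was at 168, 221 and 91.8 units in VIM tumours, 22.6, 6.19 and 24.7 in VM tumours, 49.4, 81.8 and 32.5 in MYC tumours and 79.6, 128, 92.4, 132 and 55.7 in kidneys. VIM tumours thus lay within or above the kidney range and VM tumours under it. Pnpla2 was at 2874, 3583 and 2715 units in VIM and 1678, 1519 and 1016 in VM tumours, next to 1582 to 2003 in kidney. Without the 4 libraries that held Adipoq, 10 genes were called, with Cd36 at 3.23 (limma adjusted p = 0.0299) and Lpl at 2.02 (0.024). The call count was 3 without VM tumour 2, 10 without VIM tumour 3, and 1 when the fit held these groups alone. Plin4, the droplet coat of fat and muscle, was called in VIM tumours against kidney (73.4, 85.2 and 154 units against 19.5 to 34.2, log2 1.92, SE 0.694, limma adjusted p = 0.0357). MYC tumours 2 and 3 were at 88 and 109 units and MYC tumour 1 at 5.6. The call was lost without any 1 of the VIM tumours (limma adjusted p from 0.0565 to 0.125), without any 1 of kidneys 1 to 4 (from 0.0537 to 0.0689), with no filter (0.0644) and against the B6 or the KT kidneys alone (0.149 and 0.11).

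In the cell lines the fat cell genes Adipoq and Cfd were at or under the floor in all 24 libraries, and Cd36, Fabp1, Fabp4 and Plin1 were at or near 0 there. The 11 fat cell markers summed to 18.4 to 28.3 units with Dox against 28.3 to 35.3 without in MYC-2983. The sums were 1.7 to 5.26 against 7.94 to 12.4 in VM-3055 and 3.47 to 9.02 against 16.1 to 29 in VIM-3039. From 7 to 11 of these markers were at or under the floor in every library of a group. Several other marker sums moved with Dox in these cultures. The 7 fibroblast markers summed to 215 to 269 units with Dox against 974 to 1125 without in MYC-2983, 85.7 to 111 against 630 to 711 in VM-3055 and 52.8 to 71.4 against 182 to 241 in VIM-3039. The 5 kidney epithelium markers summed to 12508 to 14090 against 19153 to 20242, 6852 to 7043 against 15358 to 16008 and 7087 to 7323 against 12049 to 12969 in the same order, and the 8 macrophage markers to 555 to 618 against 1309 to 1385, 452 to 517 against 1084 to 1145 and 499 to 544 against 595 to 674. The 9 muscle markers summed to 165 to 202 against 777 to 847 in MYC-2983 and 260 to 468 against 4074 to 4985 in VIM-3039, and the 8 endothelial markers to 102 to 130 against 382 to 413 in MYC-2983. Many of these markers were at or under the floor in every library of a group. Of the 9 muscle markers 8 were so in VIM-3039, where 1 gene carries the sum, and 6 or 7 in MYC-2983. Of the 7 fibroblast markers 5 were so in VM-3055 with Dox and 4 in VIM-3039 with Dox, against 3 without Dox in both. From 2 to 5 of the 8 macrophage markers were so. The part of these markers in the changes below was not tested. Cells with Dox were compared with cells without it in each line. In MYC-2983 cells 7 of 37 tested genes were called (18.9%, 19.5% of all genes), in VM-3055 cells 15 of 34 (44.1%, 24.8% of all genes) and in VIM-3039 cells 6 of 34 (17.6%, 24.3% of all genes). The calls were 3 higher and 4 lower in MYC-2983 (4.49% and 15% of all genes), 4 and 11 in VM-3055 (5.92% and 18.9%) and 2 and 4 in VIM-3039 (7.67% and 16.6%). The median log2 changes were −0.28, −0.55 and −0.25 against −0.13, −0.26 and −0.15 over all genes. Plin2, Plin4, Dgat2 and Lpl were called in the same direction in all 3 lines. Over all genes 23%, 23.8% and 31.6% of calls were higher with Dox, and TMM rescaling raised these shares to 30.9%, 38.9% and 43%, as it moved the median change of well expressed genes in VM-3055 from −0.20 to 0.01. Under TMM rescaling the members called higher and lower were 3 and 3 in MYC-2983, 4 and 10 in VM-3055 and 3 and 3 in VIM-3039.

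**Figure D3:**
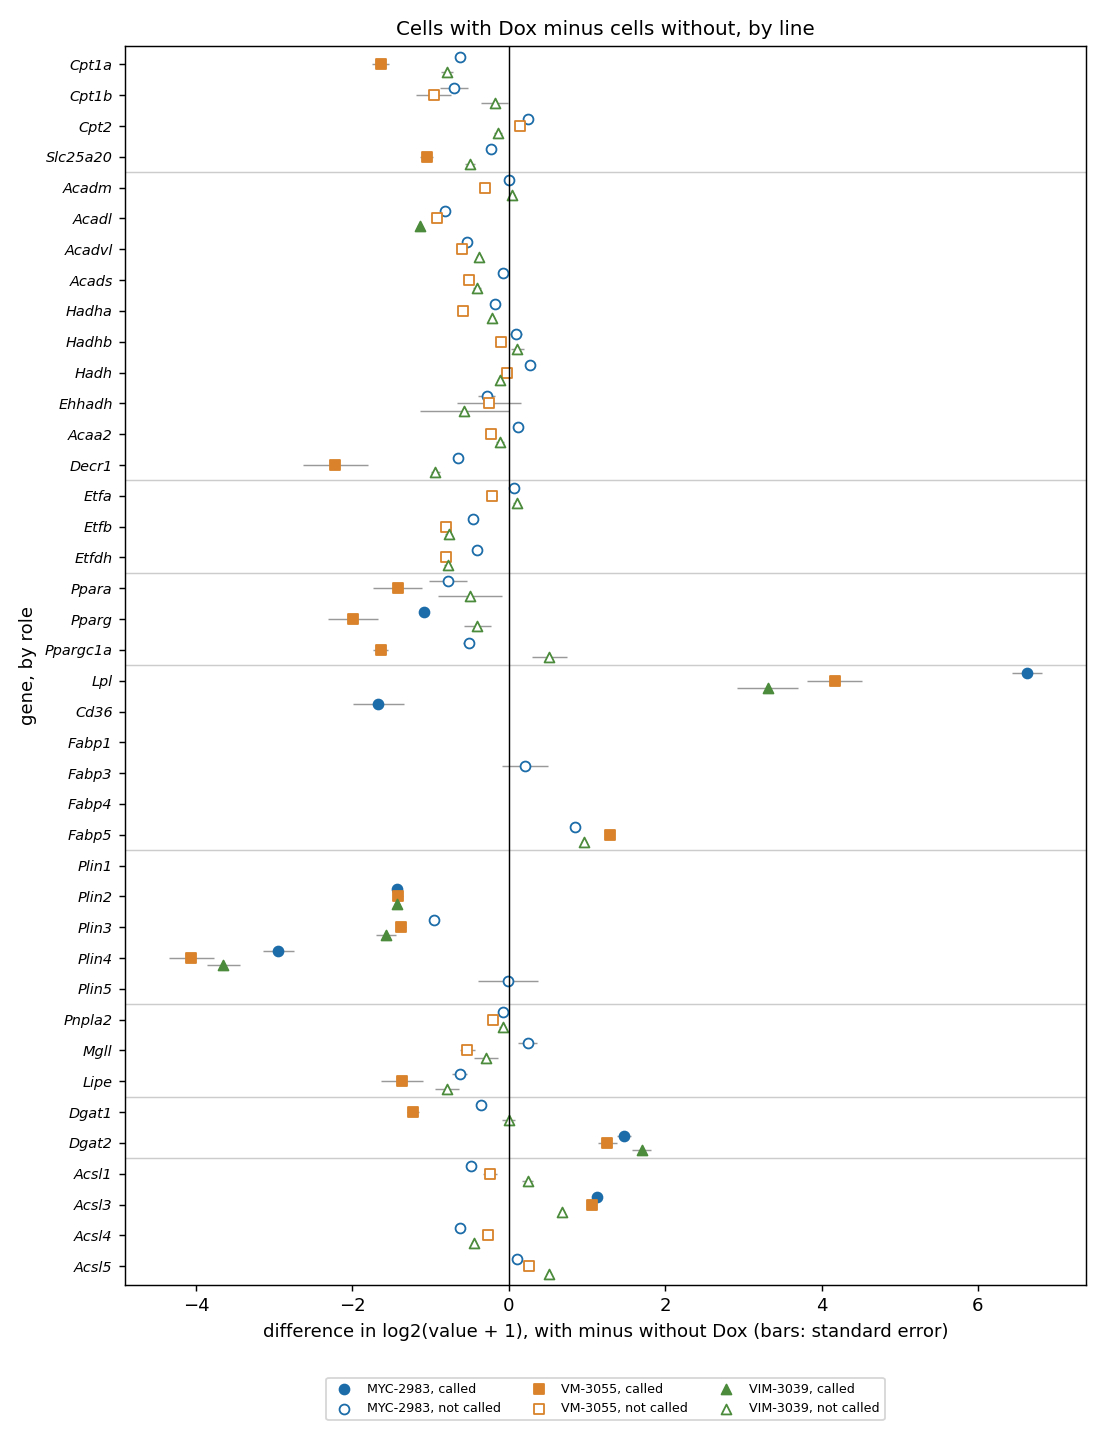
Log2 change with against without Dox (x axis, log2(value + 1) scale, error bars are SE) for each tested gene (y axis, ordered by role) in each of the 3 lines; filled points were called and open points were not. Plin2 and Plin4 lie left of −1 and Dgat2 and Lpl right of 1 in all 3 lines, and Lpl of MYC-2983 is farthest at 6.63.

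Of the droplet coats, Plin2 and Plin4 fell with Dox in all 3 lines and Plin3 in VM-3055 and VIM-3039. Plin2 was at 1525, 1287, 1223 and 1664 units with Dox and 3870, 3718, 3772 and 3867 without in MYC-2983, at 2154, 2678, 2432 and 2520 against 6418, 7226, 6360 and 6208 in VM-3055, and at 3042, 3358, 3514 and 3184 against 8932, 8376, 8766 and 9073 in VIM-3039. The log2 changes were −1.43 (SE 0.0659), −1.42 and −1.43, or 2.67-, 2.68- and 2.68-fold lower, with limma adjusted p from 2.32e-18 to 5.79e-13. Per kb, Plin2 without Dox stood at 2016, 3471 and 4654 units in the 3 lines and at 755, 1296 and 1734 with Dox, next to 693 in kidney. Plin4 was at 4.47, 3.81, 7.04 and 6.81 units with Dox and 45.9, 49.4, 44.6 and 53.3 without in MYC-2983, at 0.849 to 2.55 against 33.3 to 52.4 in VM-3055 and at 4.04 to 5.25 against 59.1 to 72.4 in VIM-3039. These are log2 changes of −2.95, −4.06 and −3.65 from low levels, with limma adjusted p from 6.68e-13 to 4.42e-10. Plin3, the broadly expressed coat, fell from 683 to 795 units without Dox to 260 to 296 with it in VM-3055 (log2 −1.38) and from 162 to 208 to 51.7 to 79.8 in VIM-3039 (log2 −1.57). In MYC-2983 it was at 462 to 492 against 894 to 956, a log2 change of −0.95 that missed the size threshold (limma adjusted p = 2.82e-14). In none of these coats did the groups overlap. Plin5 was at −0.01 in MYC-2983, and it and Plin1 were too low for a test in the other lines. The 3 windows are shown for the coat genes that changed with Dox, with motif matches in capitals.
Plin2 (mm9, chr4:86315934-86316213, minus strand): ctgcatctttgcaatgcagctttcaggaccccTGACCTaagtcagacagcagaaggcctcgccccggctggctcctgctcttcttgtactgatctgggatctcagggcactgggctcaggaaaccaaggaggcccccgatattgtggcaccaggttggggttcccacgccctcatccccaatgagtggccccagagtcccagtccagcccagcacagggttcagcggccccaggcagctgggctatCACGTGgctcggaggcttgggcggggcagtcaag
Plin3 (mm9, chr17:56429905-56430184, minus strand): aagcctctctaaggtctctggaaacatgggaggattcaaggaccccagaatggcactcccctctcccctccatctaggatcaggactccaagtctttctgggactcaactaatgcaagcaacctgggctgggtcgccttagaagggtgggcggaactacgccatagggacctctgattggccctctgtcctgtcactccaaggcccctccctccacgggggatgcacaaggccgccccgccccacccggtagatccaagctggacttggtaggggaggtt
Plin4 (mm9, chr17:56249176-56249455, minus strand): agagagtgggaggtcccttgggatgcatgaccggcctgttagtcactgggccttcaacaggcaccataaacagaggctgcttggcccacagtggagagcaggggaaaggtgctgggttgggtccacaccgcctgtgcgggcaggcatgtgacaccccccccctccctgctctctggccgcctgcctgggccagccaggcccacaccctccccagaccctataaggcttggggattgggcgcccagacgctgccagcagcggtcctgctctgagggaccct
The Plin2 window holds CACGTG at base 247, a match that spans the start, and AGGTCA as its reverse complement at base 33, and neither Plin3 nor Plin4 holds any of the 3 motifs. Plin3 and Plin4 lie near each other on chromosome 17 of mm9, at 56418385 to 56429934 and 56240014 to 56249225, with Plin5 beside Plin4 at 56251024 to 56257019, all on the minus strand.

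Dgat2 and Lpl rose with Dox in all 3 lines. Dgat2 was at 196, 208, 229 and 182 units with Dox and 65, 71.1, 75.2 and 81.1 without in MYC-2983, at 118 to 141 against 45.4 to 57.3 in VM-3055, and at 140 to 162 against 38.8 to 51.3 in VIM-3039. The log2 changes were 1.47, 1.26 and 1.70, with limma adjusted p from 3.69e-11 to 3.81e-08 and no overlap. Lpl was at 462, 417, 485 and 455 units with Dox and 1.97, 5.92, 3.47 and 3.81 without in MYC-2983, 120-fold higher (log2 6.63, limma adjusted p = 6.28e-16). It was at 42.9, 33.2, 34.8 and 43 against 0.882, 1.94, 0 and 3.04 in VM-3055 (log2 4.17) and at 16.7, 12.5, 11.8 and 17.8 against 0, 2.23, 0 and 0.83 in VIM-3039 (log2 3.31, at least 5-fold). The response of Lpl was smaller in the Vhl-deleted lines than in MYC-2983 by 2.89 on the log2 scale (SE 0.434, limma adjusted p = 3.09e-06), a difference that was −1.63 and not called with a pseudocount of 0.1 (limma adjusted p = 0.219). Acsl3, the synthetase of the growing droplet, was called in MYC-2983 (996 against 454 units, log2 1.13) and VM-3055 (1316 against 631, log2 1.06) and stood at 0.68 in VIM-3039. It shares bases on its own strand with Utp14b. Fabp5 was called in VM-3055 (2604, 2551, 2623 and 2593 units against 976, 1178, 1131 and 972, log2 1.29, limma adjusted p = 9.1e-13) and stood at 0.85 and 0.96 in MYC-2983 and VIM-3039.

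**Figure D4:**
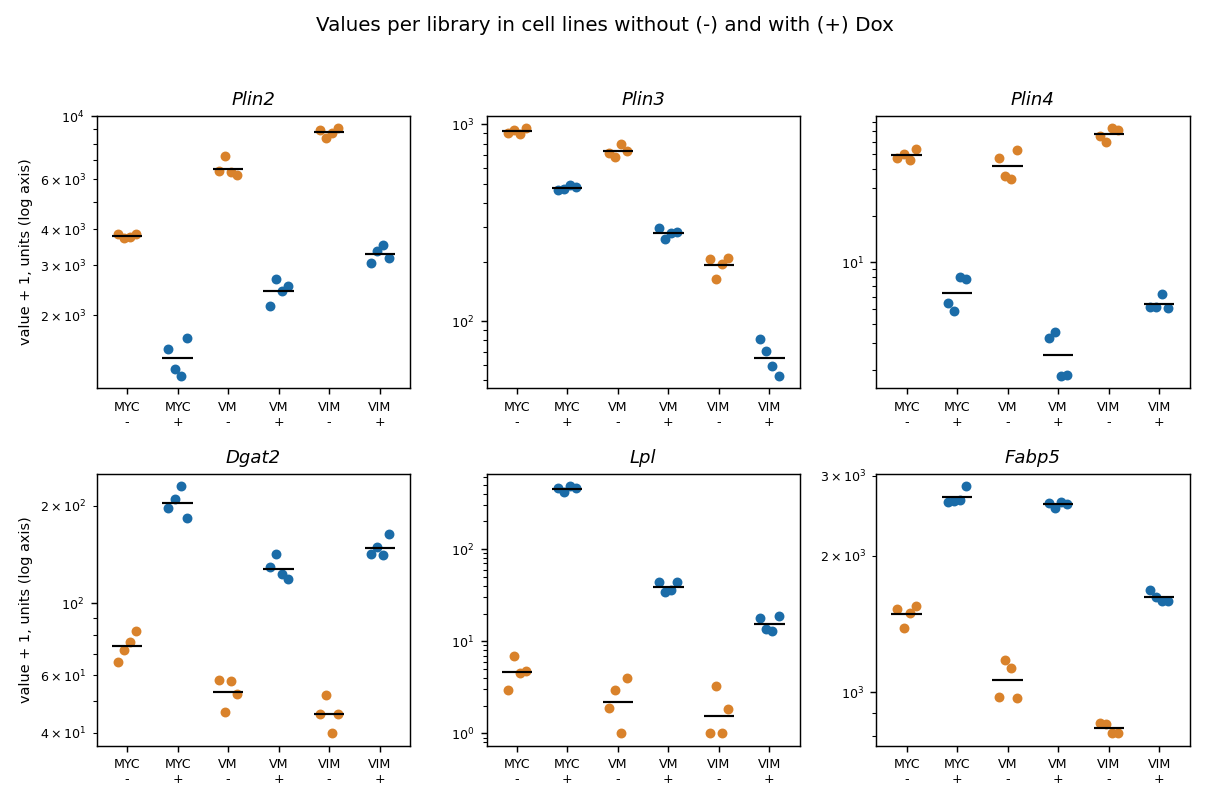
Value of Plin2, Plin3, Plin4, Dgat2, Lpl and Fabp5 in each cell library (y axis, units + 1, log axis) by line (x axis), orange without Dox and blue with Dox; the line is the mean of log2(value + 1). Blue points lie under orange for the 3 coats and above orange for Dgat2, Lpl and Fabp5 in each line.

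Few oxidation genes passed the size threshold with Dox, although their summed level was lower in all 3 lines. Summed over the 17 entry, oxidation and electron transfer genes, cells with Dox held 16275 to 16418, 12436 to 12933 and 12216 to 12940 units in MYC-2983, VM-3055 and VIM-3039, and cells without it 19620 to 19953, 17933 to 18734 and 17215 to 17831. In MYC-2983 none of the 17 genes was called, in VM-3055 3 and in VIM-3039 1, all lower. Of all genes 15%, 18.9% and 16.6% were called lower, and the 3 of 17 in VM-3055 are near that share. By limma adjusted p alone, without the size threshold, 3 of 4 entry genes were lower in each line. So were 5, 7 and 7 of the 10 beta-oxidation enzymes and 2, 3 and 2 of the 3 electron transfer genes. Higher by adjusted p alone were 1, 1 and 0 entry genes, 2, 0 and 0 beta-oxidation enzymes and 1, 0 and 1 electron transfer genes. The median log2 change of all genes was −0.13, −0.26 and −0.15, and the sums were not rescaled for this shift. In VM-3055 Cpt1a fell from 332, 376, 305 and 316 units to 127, 88.5, 95.9 and 114 (log2 −1.64, limma adjusted p = 2.29e-10), Slc25a20 fell by 1.05, and Decr1, the dienoyl-CoA reductase for unsaturated chains, fell from 12.3, 22.5, 14.7 and 25.8 to 2.22, 0.851, 3.4 and 9.65 (log2 −2.22, limma adjusted p = 0.000112). In VIM-3039 the only one called was Acadl, the long-chain dehydrogenase, at 1922, 1936, 2007 and 1800 units against 4277, 4169, 4223 and 4235 (log2 −1.14, limma adjusted p = 6.99e-18). Acadl stood at −0.82 and −0.92 in the other lines. TMM rescaling left Slc25a20 at −0.84 and Acadl at −0.99, neither called.

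Regulators differed between the lines in their response. Pparg was at 185, 165, 158 and 174 units with Dox and 347, 358, 348 and 392 without in MYC-2983 (log2 −1.08, and −0.97 and not called under TMM rescaling) and at 11.1, 18.7, 5.09 and 6.14 against 39.7, 46.5, 49.6 and 25.1 in VM-3055 (log2 −1.99). In VIM-3039 it was at 27 to 40.4 against 41.8 to 46.8 (log2 −0.40, not called), and the response differed from that of VM-3055 by 1.59 (SE 0.339, limma adjusted p = 0.000504). Ppargc1a, the coactivator of mitochondrial biogenesis, fell in VM-3055 from 226, 233, 239 and 260 units to 79.1, 76.6, 73.9 and 75.4, and stood at 27.1, 31.9, 34.8 and 36.4 with Dox against 14.2, 29, 20.4 and 29 without in VIM-3039. This was the largest difference in response among the 40 genes between these lines (2.15, SE 0.207, limma adjusted p = 3.85e-09). Dgat1 fell in VM-3055 from 1019, 901, 1254 and 1013 to 463, 447, 414 and 461 units and was at 321 to 468 against 348 to 397 in VIM-3039, with a difference of 1.22 (SE 0.129, limma adjusted p = 2.16e-08). The fourth gene called was Decr1 (1.28, SE 0.396, limma adjusted p = 0.0122), which VM-3055 cells barely expressed. Its difference was 0.13 with a pseudocount of 10 (limma adjusted p = 0.656), 0.72 under quantile normalization (0.252) and 0.90 without VM-3055 with Dox 2, and it was not called with no filter (0.0545). These 4 genes are 10.5% of the 38 tested, where 6.42% of all genes were called and 3.88% with a positive difference. Ppara and Lipe, the hormone-sensitive lipase, were also called lower in VM-3055 (log2 −1.42 and −1.37) with −0.78 and −0.63 in MYC-2983 and −0.49 and −0.79 in VIM-3039. Both calls were lost with a pseudocount of 10 (−0.72 and −0.79) and under quantile normalization (−0.69 and −0.60), and the difference in response between VIM-3039 and VM-3055 was not called for either (0.94 and 0.58, limma adjusted p = 0.103 and 0.0966). Between the Vhl-deleted lines and MYC-2983 the response was called for Lpl and Cd36 alone (5.26%, where 7.27% of all genes were called, 3.19% in the direction of Cd36 and 4.08% in that of Lpl), and Cd36 reached no more than 2.55 units on average in any cell group.

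**Figure D5:**
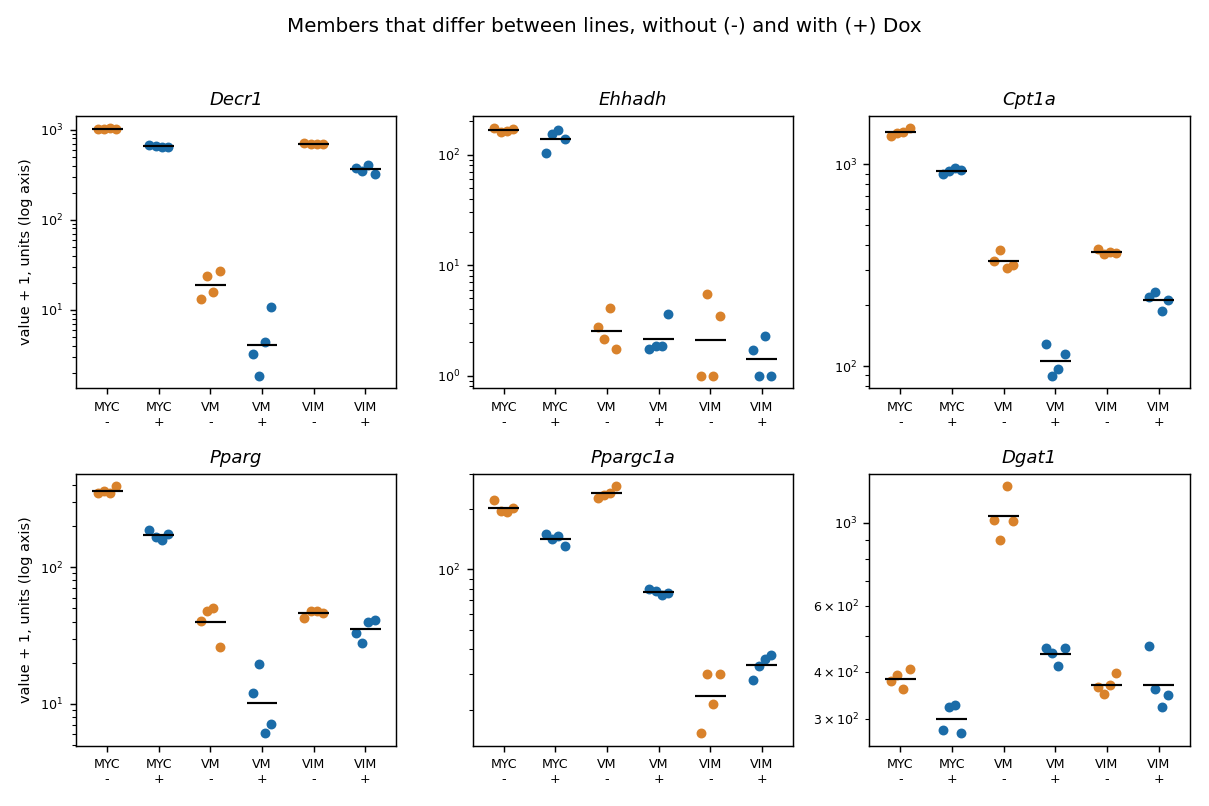
Value of Decr1, Ehhadh, Cpt1a, Pparg, Ppargc1a and Dgat1 in each cell library (y axis, units + 1, log axis) by line (x axis), orange without Dox and blue with Dox; the line is the mean of log2(value + 1). Decr1 of VM-3055 and Ehhadh of VM-3055 and VIM-3039 lie near the bottom of the axis, and Cpt1a and Pparg are highest in MYC-2983.

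The lines also differed in level on Dox. Against MYC-2983 the average of the Vhl-deleted lines had 11 of 38 genes called (28.9%, 20.5% of all genes), all lower (16% of all genes). Ehhadh was at 103 to 166 units in MYC-2983 cells with Dox and at 0 to 2.63 in both other lines (log2 −6.31, SE 0.358, limma adjusted p = 2.06e-15). Cpt1a was at 898 to 956 against 88.5 to 127 in VM-3055 and 187 to 233 in VIM-3039 (log2 −2.63), and Pparg, Lpl, Lipe, Plin3, Ppargc1a and Slc25a20 had log2 changes between −1.17 and −4.21. The 2 lines differed within these averages. Lipe was at 71.5 to 89.3 units in MYC-2983, 4.24 to 11.8 in VM-3055 and 40 to 54.8 in VIM-3039. Plin3 was at 462 to 492, 260 to 296 and 51.7 to 79.8 in the same order. Under quantile normalization Slc25a20 and Ppargc1a were not called (−0.94 and −0.89). Fabp3 was at 0 in both Vhl-deleted lines and at a mean of 3.37 units in MYC-2983. Decr1 was at 640 to 675 units in MYC-2983 and 323 to 409 in VIM-3039 but at 0.851 to 9.65 in VM-3055, so its average change of −4.08 stands mostly for VM-3055. Ppara, at means of 3.19 and 6.76 units, was called lower by 1.02, which turned to 0.04 under quantile normalization. Between VIM-3039 and VM-3055 11 of 38 genes were called (28.9%, 17.2% of all genes), 6 higher and 5 lower (8.61% and 8.57% of all genes). Decr1 was 90.7-fold higher in VIM-3039 (log2 6.48, SE 0.28, limma adjusted p = 6.12e-18), Lipe was 6.13-fold higher, Pparg 3.36-fold, Cpt1b 2.71-fold and Cpt1a 2-fold (0.79 on the log2 scale and not called under quantile normalization), while Plin3 was 4.31-fold lower, Mgll 3.24-fold, Lpl 2.62-fold and Ppargc1a 2.34-fold. Plin4 was also called higher, at 4.04 to 5.25 units in VIM-3039 against values at or under the floor in VM-3055, and was 0.31 and not called with a pseudocount of 10. Lpl was not called with a pseudocount of 0.1 (limma adjusted p = 0.158) or of 10 (log2 −0.98). Ppara was also called lower, at 0.656 to 2.78 units in VIM-3039 against 2.55 to 7.02 in VM-3055. Its change was −0.34 and not called with a pseudocount of 10. In VM tumours Decr1 was at 1296 to 2349 units.

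The rest of the pathway was read from 102 further genes. Of 100 tested in tissue, 10 were called higher and 62 lower over the tumour average (72%, against 38.5% of all genes, 18.2% higher and 20.3% lower), with a median log2 change of −1.49. Of 17 genes of peroxisomal oxidation, which shortens very long and branched chains, 16 fell and 1 rose, with a median of −2.40, and of 21 other mitochondrial oxidation genes 14 fell and 1 rose (median −1.58). Ketone body genes had 4 of 6 lower, PPAR partners and targets 4 higher and 8 lower of 18, and the other droplet and triglyceride genes 3 higher and 12 lower of 23. In MYC, VM and VIM tumours taken apart the lower calls were 63, 63 and 55 (15.2%, 21.2% and 19.2% of all genes) and the higher calls 4, 7 and 11 (17.4%, 16.4% and 17.9% of all genes). With Dox the calls were 3 higher and 8 lower of 91 tested in MYC-2983 (12.1%, against 19.5% of all genes), 4 and 22 of 83 in VM-3055 (31.3%, against 24.8%) and 2 and 17 of 81 in VIM-3039 (23.5%, against 24.3%), with medians of −0.24, −0.37 and −0.30. The peroxisomal genes were called lower in 2 of 17, 7 of 16 and 7 of 16, with none higher. These are 11.8%, 43.8% and 43.8%, where 15%, 18.9% and 16.6% of all genes were called lower.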

How the data were processed

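RNA was extracted with a Qiagen kit and sequenced from both ends of TruSeq Stranded mRNA libraries. Reads were aligned by the authors to mm9 with MapSplice, processed with Picard 1.64 and SAMtools and assigned to genes with RSEM, and the deposited values are a signal scaled by the authors to an upper quartile of 1000 in each library. Whether the assignment used strand is not stated, and Plin4, Fabp3, Acadvl, Acsl5, Hadha and Lipe overlap a gene on the opposite strand. Reads were estimated from the worth of 1 read in each library, and 94.1% to 95.9% of values under 20 reads came out whole within 0.02. Intervals and floors cover counting error only.

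Linear models of log2(value + 1) were made in R 4.3.3 with limma 3.58.1 (moderated variance with a trend on the mean), and all tests were two-sided and adjusted over all tested genes. Genes above 0 in at least 4 cell libraries or 2 mice were tested. All 3 Dox comparisons were fitted by line, all tumours and kidneys together, and the lines together for differences in response. A fold change on this scale understates the change of low genes. No label says whether replicates were separate cultures, so p-values measure the spread between libraries, which may be technical. Normal kidneys 1 and 3 have B6 titles and the others KT, whose meaning is not given.

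The members and lists were chosen with earlier results of these data known. Values per library are printed for called members of at least 50 units, up to the 6 largest rises and falls of a comparison, and for members whose response or level differed between lines or tumour genotypes. Of the further pathway genes called with at least 50 units, the 2 largest rises and falls of a comparison are named. Not each is named for every comparison in which it ranked. Plin3 in MYC-2983, Plin4 in MYC-2983 and VM-3055, Lpl in VM-3055 and VIM-3039, the ranges of Hadha, Plin2 and Fabp3 in tissue, Plin5, Fabp4, Ppara and Lipe in the cells, and Acadl in MYC-2983 and VM-3055 were added after their values were seen. Alternatives were another pseudocount (0.1 or 10), no filter on low genes or a minimum mean of 10 units, quantile normalization, TMM rescaling (trims of 0.3 and 0.05), the groups compared alone, a replicate block, voom on the recovered reads and each library left out. On simulated data all changed genes of 4-fold and more were recovered, 73 and 70 for Dox in VM-3055 (14442 genes) and 60 and 63 for VIM tumours against kidney (16639 genes), and of 2-fold 23 of 57 and 27 of 77 were called. Of unchanged genes 2 and 7 were called. All genes of a comparison were given the same dispersion (0.00214 and 0.0537), and only genes of middle level were changed. Recovery of genes with a wider spread or a low level was therefore not measured. Figures were drawn with matplotlib 3.10.9.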

Additional observations from a re-analysis of the deposited data

Results flagged for a closer look

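In 8 of 199 groups of 4 or 5 libraries tested, 1 library lay far from the rest by Dixon's test, where chance gives about 1 in 20. Normal kidney 5 gave 2 of the 8, with Cd36 at 4940 units against 26009 to 31910 in the other kidneys and Acsl1 at 9386 against 2533 to 3917. Ehhadh was at 22930 in normal kidney 2 against 13689 to 16164. In cells, Slc25a20 was at 668 in MYC-2983 without Dox 4 (600 to 607 in the others), Fabp5 at 2847 in MYC-2983 with Dox 4 (2624 to 2652), Pnpla2 at 977 in VM-3055 without Dox 4 (893 to 904), Acsl1 at 258 in VIM-3039 without Dox 2 (231 to 233) and Acsl3 at 1224 in VM-3055 with Dox 2 (1338 to 1358).

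The response to Dox differed between lines for 6 genes in the limma test of that difference. Between VIM-3039 and VM-3055 it differed on the log2 scale by 1.28 for Decr1, 1.59 for Pparg, 2.15 for Ppargc1a and 1.22 for Dgat1. Between the Vhl-deleted lines and MYC-2983 it differed by −2.89 for Lpl and 1.56 for Cd36. The value for Cd36 rests on 2.55 units in MYC-2983 cells without Dox, near the floor, and was 0.30 with a pseudocount of 10.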

How the results depend on the processing

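Of 140 values of single genes, 88 kept their direction and call under every setting tried. Of their 3578 alternative values 3415 kept the call, 162 kept the direction without it, and 1 turned sign, Ppara of the Vhl-deleted lines against MYC-2983 with Dox (0.04 under quantile normalization), where the cause was not tested. The count of Vhl-deleted against MYC tumours, 1 gene, was 2 with TMM rescaling, 3 with quantile normalization, 5 with each library its own replicate, 0 with the groups compared alone, 0 without the mouse of MYC tumours 2 and 3, 3 without the 4 libraries with Adipoq and 1 to 3 with a library left out. The count of VIM against VM tumours, 6, was 3 without a filter, 1 with the groups compared alone, 3 with voom, 10 without the libraries with Adipoq and 3 to 10 with a library left out. The difference in response between the Vhl-deleted lines and MYC-2983, 2 genes, was 1 with a pseudocount of 10, 1 with a mean of at least 10 units and 4 with voom, and VIM-3039 against VM-3055 with Dox, 11, was 7 with a pseudocount of 10. With a library left out the other counts ranged from 7 to 7, 14 to 16 and 6 to 6 for Dox in MYC-2983, VM-3055 and VIM-3039, from 20 to 22, 18 to 22, 17 to 24 and 13 to 18 for tumours against kidney on average and by genotype, from 3 to 5 and 2 to 3 for the differences in response, and from 9 to 11 and 10 to 12 for the lines with Dox. Calls at levels near the floor, such as Cd36 in cells, are limited by depth. Replicate numbers are shared by VM-3055 and VIM-3039 libraries with and without Dox, but same-numbered libraries did not deviate together (mean correlations of −0.074, 0.009 and 0.025), and with a replicate block the counts stayed at 15, 6, 4 and 11.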

Other observations

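Other genes of the pathway moved further than the 40. Acsm3, a medium-chain acyl-CoA synthetase of kidney, was at 34777 to 46749 units in kidneys 1 to 4, 1719 in kidney 5 and 5.2 to 44.6 in tumours (log2 −10.27). Mogat1, a monoacylglycerol acyltransferase, was at 3147 to 4740, at 771 in kidney 5 and at 0 to 115 in tumours (log2 −9.36). In VIM tumours the fall next to that of Acsm3 was in Eci3, of the peroxisomal genes (log2 −7.79). Abcd2, a peroxisomal transporter of very long chains, rose from 4.02 to 10.1 units in kidney to 49.4 to 815 in tumours (log2 5.07, limma adjusted p = 6.03e-06), the 1 peroxisomal gene to rise. Hilpda, a HIF target that inhibits triglyceride breakdown, rose from 26.8 to 46.7 to 205 to 1008 units (log2 3.61), in MYC tumours as well as those without Vhl. Cidec, which enlarges droplets in fat cells, was called in VIM tumours against kidney (69.7, 81.5 and 20.2 units against 0 to 12.7), and was at 0.933, 37 and 114 in MYC tumours. Cpt1c, a brain-type relative of Cpt1a, was called in VM tumours (log2 4.24), where it was at 2284, 59.8 and 60.4 units, next to 3.46 to 17.5 in kidney, 42.6 to 136 in VIM and 22.3 to 134 in MYC tumours. In VIM tumours Acacb (455 units in 1 of them and 75.3 and 77.2 in the others), which makes the inhibitor of CPT1, and Bdh1, of ketone body metabolism, were higher than in VM tumours by 2.94 and 2.28, and G0s2, an inhibitor of Pnpla2, was lower by 2.88 on the log2 scale.

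With Dox, Ppargc1b, a coactivator related to Ppargc1a, rose in all 3 lines, from means of 44.2, 22.4 and 26.1 to 130, 70.7 and 117 units in MYC-2983, VM-3055 and VIM-3039. Acacb rose in MYC-2983 (65.7 against 16.6), where Fgf21 and Angptl4, both PPAR targets, fell by 1.94 and 1.72. In VM-3055 Phyh and Acox3, peroxisomal enzymes of branched chains, fell by 2.75 and 1.91, and the response of Phyh differed from that of VIM-3039 by 1.57 (limma adjusted p = 1.64e-09). In VIM-3039 Lpin3, a phosphatidate phosphatase, and Slc27a1, a fatty acid transporter, fell by 2.02 and 1.68. Between the lines with Dox, Ivd, of leucine breakdown, was at 208 units in VIM-3039 and 6.76 in VM-3055, and Cpt1c at 132 in MYC-2983 and 1.3 in the average of the other lines. Fabp7 was also higher in VIM-3039 than in VM-3055 (log2 5.95), and Cyp4b1 was lower (log2 −1.09). The average of the Vhl-deleted lines was higher than MYC-2983 for Lipg and Ucp2 (log2 2.15 and 1.68) and lower for Acsl6 (log2 −5.74).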
